A study of Mus musculus with 12 samples.

Results

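The neuregulins Nrg1, Nrg2 and Nrg3 and the ErbB receptors Erbb2, Erbb3 and Erbb4 were followed across the newborn mouse forebrain. The members were chosen by symbol, and each of the 6 was listed once among the 55335 genes of the count matrices. Nuclei came from 12 mouse pups at postnatal day 1, with 8 WT and 4 Het animals of the MYT1L S710fsX strain, and each animal gave 1 library of single-nucleus RNA-seq counts. Het animals carry a heterozygous frameshift in Myt1l, a zinc-finger transcription factor of neurons, in all their cells; the WT animals came from the same C57BL/6 line, and the labels give no treatment. The WT group held 5 males and 3 females and the Het group 3 males and 1 female. The labels give the region only as forebrain, and cortical, striatal and olfactory classes were all among the nuclei.

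Neuregulins are ligands with an EGF-like domain, mostly made as membrane-anchored precursors that proteases release, and they bind and activate ErbB receptor tyrosine kinases. Nrg1 and Nrg2 products bind ErbB3 and ErbB4, Nrg3 products bind ErbB4, and ErbB2 binds none of these ligands itself but pairs with the other receptors. In the forebrain, ErbB4 is best known from GABAergic interneurons, where its ligands act on migration and on synapse formation, and ErbB3 is best known from glia of the oligodendrocyte and Schwann cell lineages.

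The files listed 126684 barcodes, no barcode was shared by libraries, and the library totals ran from 1.54e+07 to 4.08e+07 UMIs (unique molecular identifiers, each counting 1 captured RNA molecule). After filtering and removal of likely doublets 95000 nuclei remained, with a median of 1905 UMIs. Clustering without the members or their pathway genes gave 59 clusters, of which 36 met the naming rules and were grouped into 18 classes with 63231 nuclei, or 66.6% of those kept; the others were left unnamed. Levels below are CPM, the member's UMIs in a class and library divided by all UMIs of that class and library and scaled to 1e+06, given as mean ± SD over libraries. They cover nuclear RNA and counting error is only part of their spread. In such sums fewer expressing nuclei and less RNA per nucleus cannot be told apart. Myt1l itself was at 1422 ± 109 CPM in WT libraries (1266 to 1605 CPM) and higher on average, at 1569 ± 50.2 CPM, in Het libraries (1534 to 1643 CPM), and this level does not check the labels.

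Nrg1 (ENSMUSG00000062991.9; chr8:31814551-32884029, minus strand, GRCm38), Nrg3 (ENSMUSG00000041014.17; chr14:38368952-39473088, minus strand) and Erbb4 (ENSMUSG00000062209.15; chr1:68032186-69108059, minus strand) have gene bodies of 1069 kb, 1104 kb and 1076 kb. Erbb2 (ENSMUSG00000062312.5; chr11:98412470-98437716, plus strand) and Erbb3 (ENSMUSG00000018166.8; chr10:128567523-128589652, minus strand) have gene bodies of 25.2 kb and 22.1 kb, and Nrg2 is ENSMUSG00000060275.13. Nuclear RNA is rich in unspliced transcripts, and long genes then give more counts, so genes were compared with each other only per kb of gene body. On that scale the level over all nuclei was 5.46 ± 0.627 CPM per kb for Nrg3, 3.43 ± 0.241 for Nrg1, 2.05 ± 0.310 for Erbb4, 0.930 ± 0.137 for Nrg2, 0.0939 ± 0.0530 for Erbb3 and 0.0868 ± 0.0203 for Erbb2 (SD, n = 12). Nrg3, Nrg1 and Erbb4 were therefore the members carried by most counts per length, and Erbb2 and Erbb3 were detected sparsely. The kept nuclei held 1241630 UMIs of Nrg3, 775863 of Nrg1, 458596 of Erbb4, 34963 of Nrg2, 451 of Erbb2 and 406 of Erbb3.

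The protein made from Myt1l binds DNA at the short motif AAGTT, and the promoters of members are shown for that reason. They run from 250 bases before to 50 after the gene start, read 5′ to 3′ along the gene, from RefSeq on GRCm38.p6, and cover 3 of the 6 members; Nrg1, Nrg2 and Erbb3 are named only. Capitals mark AAGTT on the strand shown or its reverse complement AACTT. The Erbb4 window is chr1:69108010-69108309 (minus strand), the Nrg3 window chr14:39473039-39473338 (minus strand) and the Erbb2 window chr11:98412234-98412533 (plus strand).
Erbb4: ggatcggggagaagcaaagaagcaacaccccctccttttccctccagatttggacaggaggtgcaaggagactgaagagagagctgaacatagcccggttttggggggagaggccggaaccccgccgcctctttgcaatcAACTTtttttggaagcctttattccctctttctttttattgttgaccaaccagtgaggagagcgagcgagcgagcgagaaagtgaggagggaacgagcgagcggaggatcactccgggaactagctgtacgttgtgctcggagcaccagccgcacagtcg
Nrg3: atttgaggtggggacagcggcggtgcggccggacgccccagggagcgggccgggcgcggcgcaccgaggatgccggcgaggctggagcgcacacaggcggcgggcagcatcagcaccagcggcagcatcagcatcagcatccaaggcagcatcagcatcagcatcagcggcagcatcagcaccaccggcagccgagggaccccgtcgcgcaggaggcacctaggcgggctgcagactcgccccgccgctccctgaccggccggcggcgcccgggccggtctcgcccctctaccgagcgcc
Erbb2: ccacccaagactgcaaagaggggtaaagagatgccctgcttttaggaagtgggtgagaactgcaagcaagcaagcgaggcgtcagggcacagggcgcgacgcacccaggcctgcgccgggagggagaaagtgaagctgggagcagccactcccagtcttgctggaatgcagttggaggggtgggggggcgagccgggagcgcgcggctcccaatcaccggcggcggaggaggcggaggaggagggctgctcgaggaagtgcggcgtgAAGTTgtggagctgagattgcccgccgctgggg
Erbb4 and Erbb2 each held 1 match and Nrg3 held 0, in windows of 55.3%, 66% and 74.3% GC. Of the 32851 promoters of the same length in the table, 39.3% held at least 1 match, so a match is common, and it is a description of letters only.

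Nrg1 was highest in intermediate progenitors, astroglia and Cajal-Retzius neurons and was also counted in other cortical and in striatal neurons. Its highest levels were in the intermediate progenitor-like class, the Eomes-type precursors of excitatory neurons, with 17876 ± 3391 CPM (n = 12), followed by the astroglia-like class with 13789 ± 2428 CPM and the Cajal-Retzius-like class, the Reln-producing neurons of the outermost cortical layer, with 11573 ± 1733 CPM. The intermediate progenitor-like level exceeded the astroglia-like level in 11 of 12 libraries, by 0.37 ± 0.29 on the log2 scale (SD; exact sign-flip permutation, two-sided, adjusted p = 0.0226 over the 102 neighbouring pairs of classes compared for the 6 members). The astroglia-like and Cajal-Retzius-like levels, by contrast, did not differ beyond their spread (0.25, adjusted p = 0.235 by the same exact test). Cajal-Retzius-like nuclei in turn lay above cycling progenitor-like nuclei (6301 ± 904 CPM) by 0.88 ± 0.23 in 12 of 12 libraries (exact adjusted p = 0.00553). With nuclei gated on their own marker UMIs instead of by cluster, the astroglia-like level was 11315 ± 1740 CPM and the Cajal-Retzius-like level 10975 ± 1770 CPM. The gate held only 3 intermediate progenitor-like nuclei and gave no value for them, and at the coarser clustering no such class was named. The first place of this class thus rests on the clustering reported here and the finer one.

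Neurons formed the middle of the Nrg1 order. L6b/subplate-like nuclei had 5294 ± 553 CPM, deep-layer-like excitatory nuclei 4152 ± 753 CPM, D1-like striatal nuclei 4121 ± 534 CPM, D2-like nuclei 3966 ± 655 CPM and upper-layer-like nuclei 3287 ± 185 CPM, and no neighbouring pair from the cycling progenitors down to the last class differed at an adjusted p under 0.05. Interneurons were at the lower end of the order: CGE-type (caudal ganglionic eminence) nuclei had 1387 ± 266 CPM and MGE-type (medial ganglionic eminence) nuclei 615 ± 116 CPM, next to 520 ± 275 CPM in mural/fibroblast-like nuclei. In MGE nuclei Nrg1 was counted in 38.9% of nuclei at a median of 1803 UMIs, against 36.2% of endothelial-like nuclei at 1509 UMIs, and in 24.2% against 24.9% once each nucleus was thinned to 800 UMIs. Mural/fibroblast-like nuclei were lower, with 22.7% at a median of 1483 UMIs and 14.7% after thinning, and with the marker gate MGE nuclei had 1144 ± 180 CPM and endothelial-like nuclei 436 ± 347 CPM. By cluster, the share of MGE nuclei with Nrg1 was thus near that of endothelial-like and above that of mural/fibroblast-like nuclei. The part of stray RNA in the MGE level was not tested. Among astroglia-like nuclei the share was 91.1%, and 88.8% after thinning.

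**Figure D1:**
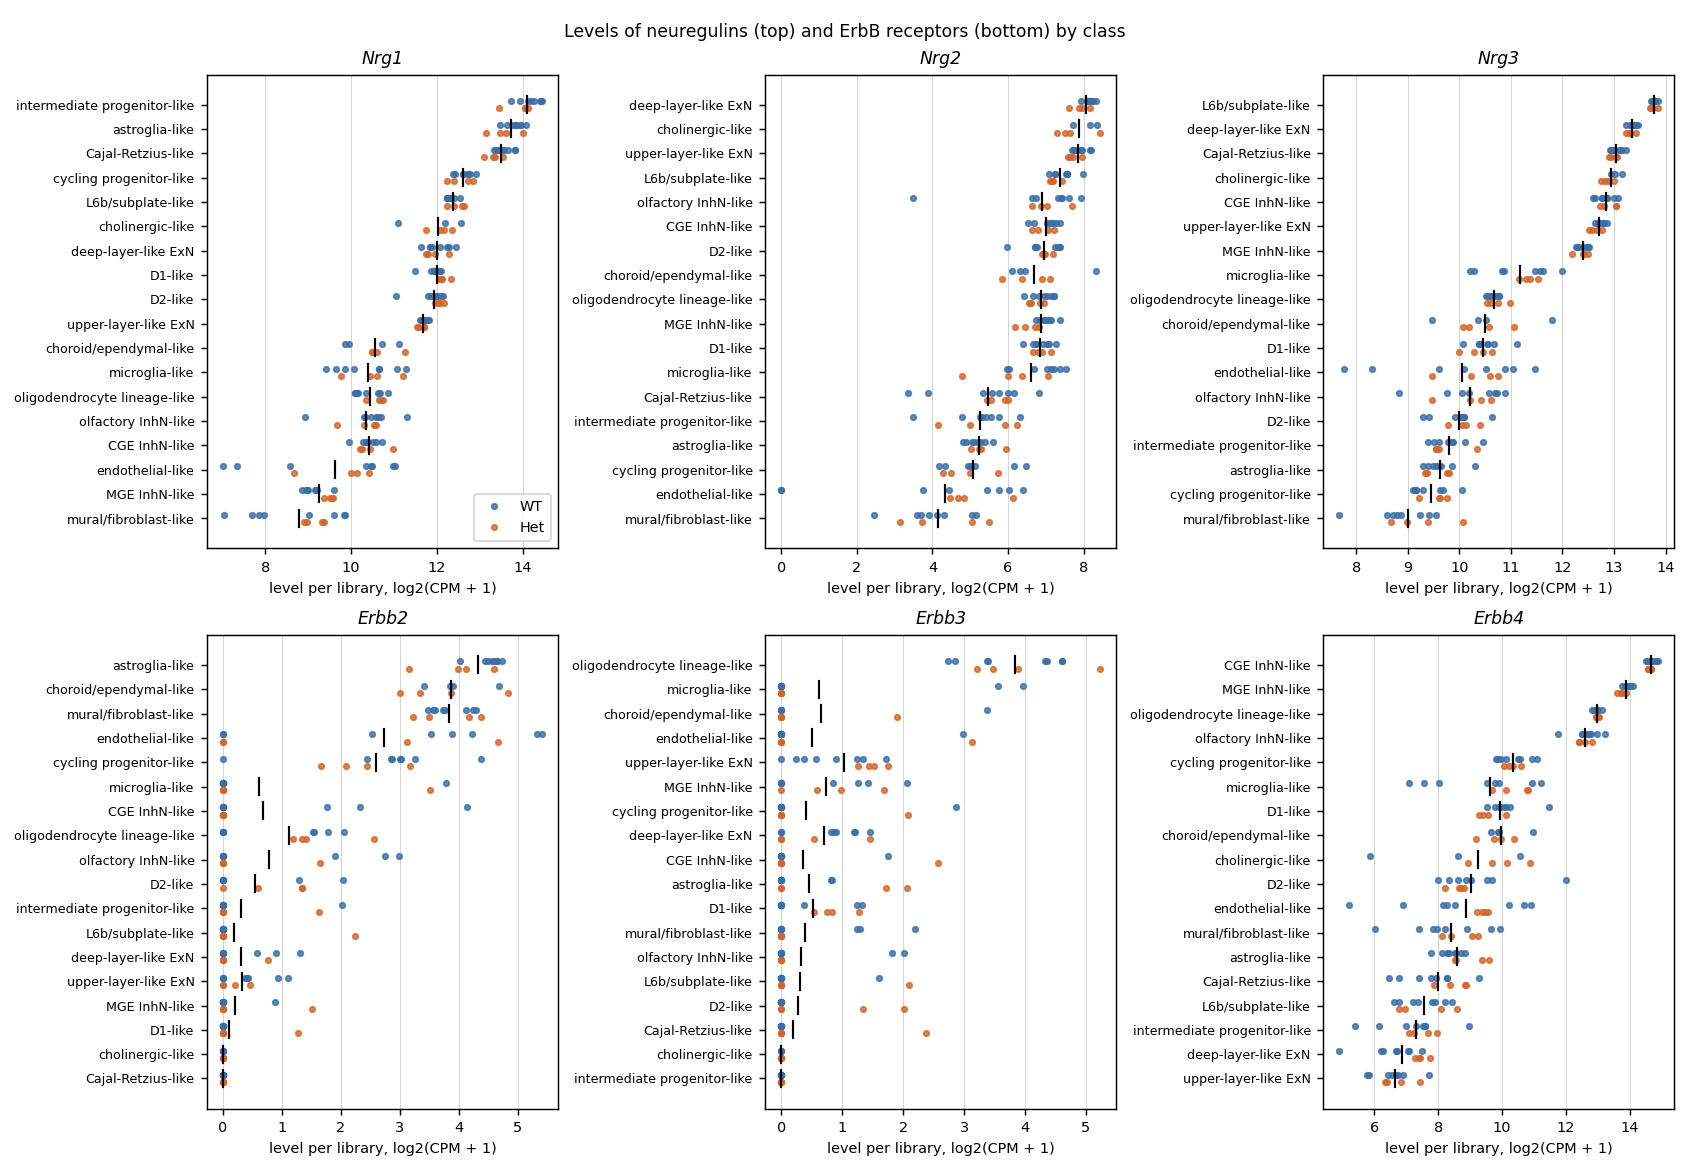
Level of each member by class, as log2(CPM + 1) on the horizontal axis, with 1 point per library (blue WT, orange Het) and a black tick at the mean of the log values; classes are ordered by that member's mean. Nrg1 is highest in intermediate progenitor-like and astroglia-like nuclei, Nrg3 in L6b/subplate-like and deep-layer-like nuclei, and Erbb4 in CGE-like and MGE-like nuclei.

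Nrg2 was highest in excitatory and cholinergic-like neurons. The deep-layer-like class had 269 ± 35.1 CPM, the cholinergic-like class 242 ± 74.9 CPM (n = 7 libraries with at least 10 such nuclei), and the upper-layer-like class 230 ± 32.7 CPM, and the test did not tell these neighbours apart. L6b/subplate-like nuclei had 169 ± 33.3 CPM and lay below the upper-layer-like class by 0.45 ± 0.16 on the log2 scale in 12 of 12 libraries (exact sign-flip test, adjusted p = 0.00553). Astroglia-like nuclei, second for Nrg1, had 37.5 ± 9.30 CPM of Nrg2, and mural/fibroblast-like nuclei, the lowest, had 19.97 ± 12.5 CPM.

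Nrg3 was highest in cortical neurons. L6b/subplate-like nuclei, the deepest cortical neurons and remnants of the early subplate, had 13957 ± 511 CPM, with all 12 libraries between 13334 and 14897 CPM, and the deep-layer-like class had 10517 ± 580 CPM, lower by 0.41 ± 0.09 on the log2 scale in 12 of 12 libraries. Cajal-Retzius-like nuclei followed with 8391 ± 597 CPM, lower by a further 0.33 ± 0.08 in 12 of 12 libraries (both exact sign-flip tests, adjusted p = 0.00553). With the marker gate this second difference was 0.10 and was not called (exact adjusted p = 0.173). The first difference had no value there, since the gate held only 9 L6b/subplate-like nuclei. By cluster that class was cluster 27 alone, with 1311 nuclei. Cholinergic-like (7871 ± 739 CPM, n = 7), CGE-type (7413 ± 826 CPM) and upper-layer-like nuclei (6701 ± 454 CPM) came next, and the test did not tell these 3 classes, or the Cajal-Retzius-like class above them, apart in that order. MGE-type interneurons had 5404 ± 392 CPM, which was 0.31 ± 0.15 below the upper-layer-like class in 12 of 12 libraries (exact adjusted p = 0.00553).

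Outside these neurons Nrg3 was much lower. D1-like nuclei had 1431 ± 313 CPM, D2-like nuclei 1043 ± 260 CPM, astroglia-like nuclei 799 ± 176 CPM and mural/fibroblast-like nuclei 550 ± 224 CPM. Striatal projection neurons thus held Nrg1 at the level of cortical neurons but little Nrg3. Some Nrg3 was counted in every class: 43.7% of endothelial-like nuclei had at least 1 UMI at a median of 1509 UMIs, or 31.4% after thinning, against 98.5% and 97.3% of excitatory nuclei at a median of 2101 UMIs. Astroglia-like nuclei had shares of 48.5% and 36.5%, somewhat above those of endothelial-like nuclei and above the 33.3% and 21.4% of mural/fibroblast-like nuclei, and the part of stray RNA in them was not tested. Endothelial-like and microglia-like levels also depended on how nuclei were assigned: with the marker gate Nrg3 had 310 ± 139 CPM rather than 1318 ± 760 CPM in endothelial-like nuclei, and 394 ± 207 CPM (n = 10) rather than 2468 ± 839 CPM in microglia-like nuclei.

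Erbb4, the receptor that all 3 ligands can bind, was concentrated in interneurons. CGE-type nuclei had 25960 ± 2197 CPM, with libraries between 23133 and 30310 CPM, and MGE-type nuclei 14998 ± 1471 CPM, lower by 0.79 ± 0.16 on the log2 scale in 12 of 12 libraries (exact sign-flip test, adjusted p = 0.00553). The oligodendrocyte lineage-like class, in which Pdgfra-type precursors predominate at this age, came next with 7991 ± 429 CPM and the narrowest relative spread of these classes, at 7167 to 8872 CPM. It lay 0.90 ± 0.16 below the MGE class in 12 of 12 libraries (exact adjusted p = 0.00553). Immature olfactory-type inhibitory nuclei had 6385 ± 1485 CPM, below the oligodendrocyte lineage by 0.36 ± 0.37 in 10 of 12 libraries (exact adjusted p = 0.0457), an order that turned at coarser and finer clustering (-0.18 and -0.21). The marker gate gave 18751 ± 2640 CPM in CGE-type, 12910 ± 1458 CPM in MGE-type and 7565 ± 273 CPM in oligodendrocyte lineage-like nuclei. In olfactory-type nuclei it gave only 1540 ± 556 CPM, below the 1769 ± 528 CPM (n = 4) of choroid/ependymal-like nuclei, so the olfactory-type level depended on the assignment.

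By cluster, every other named class had far less Erbb4. Cycling progenitor-like nuclei, next in order, had 1345 ± 405 CPM, 2.26 ± 0.62 below the olfactory-type class on the log2 scale in 12 of 12 libraries (exact adjusted p = 0.00553). The deep-layer-like and upper-layer-like classes closed the order at 128 ± 53.2 and 106 ± 45.5 CPM. The share of nuclei with an Erbb4 UMI was 99.95% in CGE-type, 98.3% in oligodendrocyte lineage-like and 95.9% in MGE-type nuclei (99.8%, 97.1% and 90.3% after thinning to 800 UMIs). In excitatory nuclei it was 14.2% (6.38% after thinning), below the 21.7% (14.6%) of endothelial-like nuclei. With the marker gate, however, deep-layer-like nuclei had 533 ± 139 CPM and upper-layer-like nuclei 258 ± 86.7 CPM, against 158 ± 110 CPM in endothelial-like nuclei. The part of stray RNA in the excitatory level was not tested. D2-like nuclei had 765 ± 1067 CPM, with WT 4 at 4113 CPM from 10 nuclei; the other 11 libraries lay between 252 and 819 CPM. WT 4 also stood apart in D1-like nuclei, at 2806 CPM from 17 nuclei, against 620 to 1209 CPM elsewhere.

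Erbb2, the receptor that acts as a partner of the others, was sparse and mostly non-neuronal. Astroglia-like nuclei had 19.97 ± 5.25 CPM from 184 UMIs, and choroid/ependymal-like (14.9 ± 7.38 CPM, n = 8), mural/fibroblast-like (13.8 ± 3.92 CPM) and endothelial-like nuclei (13.3 ± 14.9 CPM) did not differ from their neighbours in the order beyond the spread. Between 2.32% and 2.59% of nuclei in these 4 classes had an Erbb2 UMI. Excitatory nuclei had 0.245 ± 0.169 CPM, with a UMI in 0.0668% of nuclei. No UMI was found in 889 Cajal-Retzius-like nuclei, which allows up to 0.337% of nuclei with a UMI, or 1.23 CPM; intervals and floors of this kind cover counting error only. Mien1, which overlaps the end of Erbb2 on the opposite strand, had 196.5 UMIs, equal to 43.6% of the Erbb2 total, and no source used here says whether counting kept the strands apart.

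Erbb3, a receptor with little kinase activity of its own, was highest among named classes in the oligodendrocyte lineage-like class, at 15.4 ± 9.25 CPM from 66.5 UMIs, with libraries between 5.69 and 36.6 CPM. That was above the next class, microglia-like at 2.12 ± 5.02 CPM, by 3.21 ± 1.64 on the log2 scale in 11 of 12 libraries (exact sign-flip test, adjusted p = 0.00996). The remaining named classes had at most 1.51 CPM, and in 1666 intermediate progenitor-like nuclei no UMI was found, which allows up to 0.18% of nuclei with a UMI. An Erbb3 UMI was found in 2.13% of oligodendrocyte lineage-like nuclei, against 0.380% of endothelial-like nuclei, and in 1.21% against 0.116% after thinning.

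Counted by the named class that the transcripts came from, the leading source of Erbb4 differed from that of each ligand under every assignment. Erbb2 was led by astroglia-like nuclei, which also led Nrg1 at the clustering reported here. Astroglia-like nuclei, with 4.62% of all UMIs, supplied 17.3 ± 4.12% of Nrg1 UMIs (mean of library shares, n = 12), and upper-layer-like nuclei, with 17.4% of all UMIs, supplied 15.5 ± 5.79%. Intermediate progenitors supplied 4.30 ± 1.62% of Nrg1 from 0.943% of all UMIs, and MGE-type interneurons 0.927% from 5.61%. The first place among named classes for Nrg1 depended on the assignment: upper-layer-like nuclei led at the coarser clustering (28.5%), at the finer clustering (17.7%) and with the marker gate (32.4%). It also turned with genotype, which was not tested. Upper-layer-like nuclei supplied 14.0% in WT and 18.5% in Het libraries, and astroglia-like nuclei 18.0% and 15.9%.

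For Nrg2 and Nrg3 the upper-layer-like class led the named classes under every assignment, with 24.2 ± 9.41% and 19.7 ± 8.16% of UMIs. The deep-layer-like class followed with 13.05 ± 6.26% and 13.7 ± 5.46%. For Nrg3 this lead was small in WT libraries (16.6% against 15.7%) and larger in Het libraries (25.7% against 9.7%). L6b/subplate-like nuclei supplied 4.61 ± 0.993% of Nrg3 from 2.01% of all UMIs. MGE-type interneurons supplied 38.2 ± 5.34% of Erbb4 UMIs from 5.61% of all UMIs and CGE-type interneurons 20.2 ± 4.21% from 1.71%. The named excitatory classes together supplied 1.45% from 27.4%. Erbb2 UMIs came to 42.0 ± 10.9% from astroglia-like nuclei and to 17.1 ± 7.78% from mural/fibroblast-like nuclei. Unnamed nuclei, with 40.4% of all UMIs, held 31.1% of Nrg1, 42.5% of Nrg2 and 48.5% of Nrg3 UMIs, and 53.0 ± 20.8% of Erbb3 UMIs. Erbb4 in unnamed nuclei lay between 728 and 1539 CPM by library, so they held a part of its UMIs too. The oligodendrocyte lineage, with 18.0 ± 9.85%, led the named classes for Erbb3 here and at the finer clustering, and upper-layer-like nuclei led at the coarser clustering (19.3%) and with the marker gate (22.7%).

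**Figure D2:**
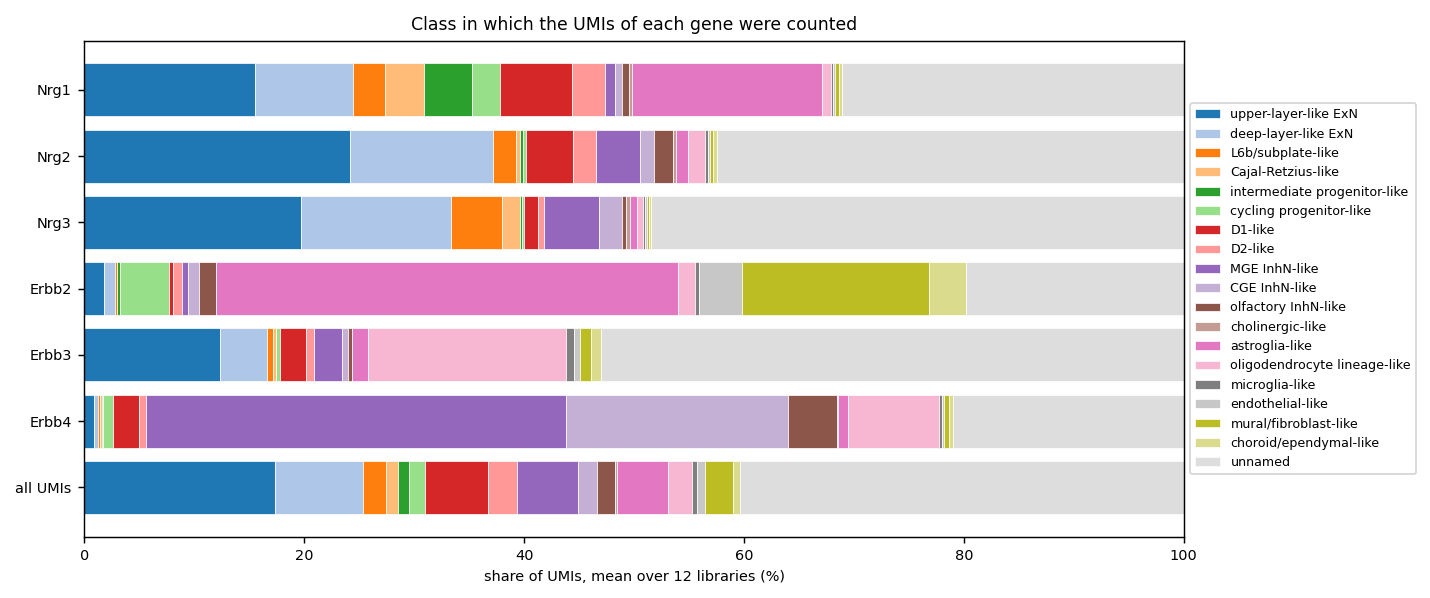
Share of each member's UMIs by class of origin, in percent of the member's UMIs in kept nuclei, as the mean over 12 libraries, beside a bar for all UMIs; grey is unnamed nuclei. Among named classes Erbb4 comes mainly from MGE-like (38.2%) and CGE-like (20.2%) nuclei and Erbb2 from astroglia-like nuclei (42.0%). Nrg1 is shared among astroglia-like (17.3%), upper-layer-like (15.5%) and other nuclei. Unnamed nuclei also hold a part of the Erbb4 UMIs.

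Ligand and receptor were nevertheless often counted in the same nucleus of the receptor-rich classes. Nrg3 and Erbb4 were both found in 89.6% of MGE-type, 94.4% of CGE-type and 74.3% of oligodendrocyte lineage-like nuclei, against 14.0% of excitatory nuclei. Nrg1 and Erbb4 were both found in 37.0% of MGE-type and 52.7% of CGE-type nuclei. In excitatory nuclei the common pair was of the ligands, with Nrg1 and Nrg3 both found in 87.6%. These shares rise with depth and with stray RNA and were not corrected for either.

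Classes hid large differences between clusters, which were formed without the members. Genes listed apart inside the gene bodies of members, such as Nrg3os and Gm37769, were not left out by that rule. Of the 2 astroglia-like clusters, cluster 10, led by Veph1, Hgf and Gli3, had 19703 ± 4285 CPM of Nrg1 and cluster 2, led by Tnc, Fabp7 and Bcan, had 9197 ± 747 CPM (n = 12 each). Cluster 10 was higher in 12 of 12 libraries, with its lowest value, 9436 CPM, in Het 3. The mean of cluster 10 was also above that of the intermediate progenitor-like class, which is cluster 26 alone, and this order was not tested. Deep-layer-like cluster 25, led by Htr1f, Hs3st4 and Cdh9, had 7749 ± 1306 CPM of Nrg1, against 3831 ± 636 CPM in cluster 18 (Tle4, Etv1, Fezf2) and 2601 ± 618 CPM in cluster 7 (Hs3st4, Zfpm2, Syt6). In these 3 clusters Nrg3 was nearly level, at 10593 ± 733, 11019 ± 711 and 10118 ± 545 CPM. Upper-layer-like clusters ran from 1045 ± 152 CPM of Nrg1 in cluster 24 (Angpt1, Alk, Rspo2) to 4963 ± 599 CPM in cluster 23 (Ntf3, Vegfc, Mkx).

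Erbb4 split the MGE-type interneurons. Cluster 17, led by Nxph2, Nxph1 and Neb, had 26421 ± 1634 CPM, while cluster 14, led by Grik1, Kcnc2 and Dgkg, had 10441 ± 1696 CPM, and the highest library of cluster 14 (12718 CPM) lay below the lowest of cluster 17 (24626 CPM). Cluster 48, led by Nos1, Tacr1 and Npy, the genes of long-range nitrergic interneurons, had 2368 ± 450 CPM of Erbb4 and 2200 ± 862 CPM of Nrg3, whereas clusters 17 and 14 had 5113 ± 521 and 6052 ± 460 CPM of Nrg3. The 2 D1-like clusters also differed, with 2405 ± 426 CPM of Erbb4 and 3349 ± 321 CPM of Nrg3 in cluster 31 (Lypd1, Oprm1, Tac1; n = 11) against 693 ± 779 and 828 ± 237 CPM in cluster 1 (Ebf1, Ikzf1, Rarb; n = 12). These cluster levels are descriptions and carry no test.

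**Figure D3:**
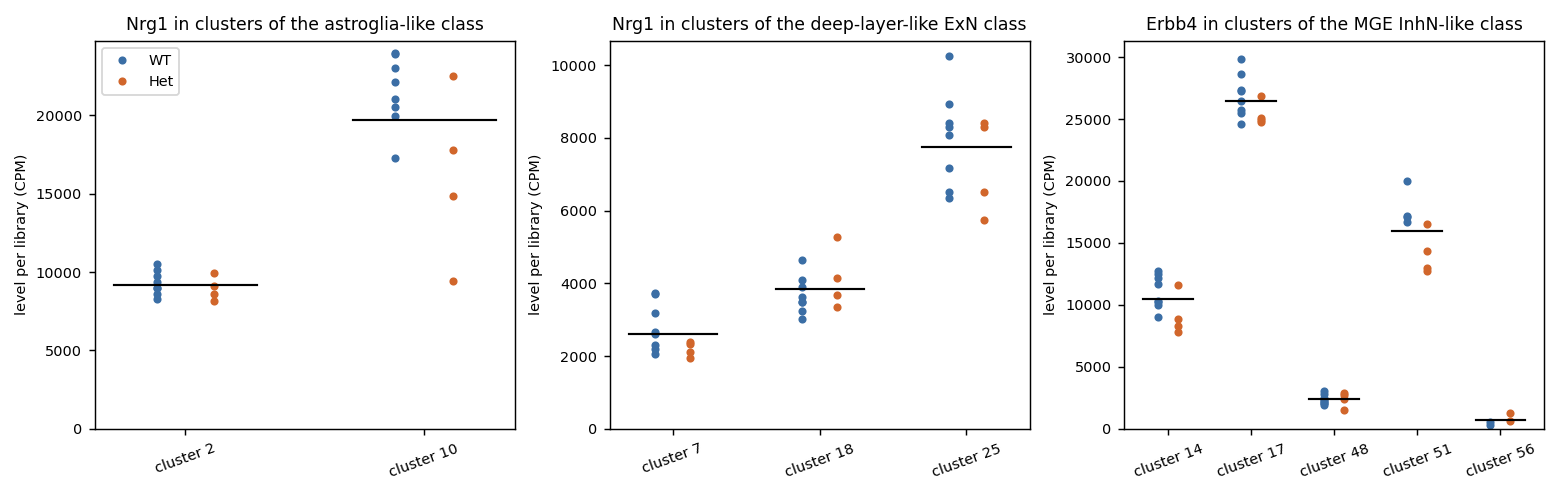
Nrg1 in the clusters of the astroglia-like and deep-layer-like classes and Erbb4 in the clusters of the MGE-like class, in CPM with 1 point per library (blue WT, orange Het) and a line at the mean. Astroglia-like cluster 10 lies above cluster 2 in each of 12 libraries, and MGE-like cluster 17 lies above cluster 14 without overlap.

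Members were also set beside the other genes over the 18 classes, using the mean log2(CPM + 1) of the WT libraries and 15242 genes that reached 10 CPM in some class; correlations are across classes, which share libraries, and are descriptions. Erbb2 was closest to Smad6 (r = 0.96), Oaf (0.95) and Yap1 (0.95), each highest in mural/fibroblast-like nuclei, and Erbb3 to Gjc3, Mroh3 and Zfp488 (0.94 each), each highest in the oligodendrocyte lineage. Nrg1 was closest to Ralgapa2 (0.85) and Gm45304 (0.83), and Nrg2 to Ptpn5 (0.89). The nearest genes to Nrg3 and Erbb4 lay inside their own gene bodies: Nrg3os (0.92), on the opposite strand of Nrg3 and counted at 0.843% of the UMIs of Nrg3, and Gm37769, Gm37061 and Gm37735 (0.96, 0.95 and 0.92) on the same strand within Erbb4. Between the 15 pairs of members the correlations ran from -0.63, for Nrg2 and for Nrg3 with Erbb2, to 0.69 for Nrg2 with Nrg3, and that of Nrg1 with Erbb4 was -0.50.

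WT and Het animals were then compared in sums of counts per library, over all nuclei, over excitatory nuclei together and in each of the 18 classes, by edgeR's quasi-likelihood test with Benjamini-Hochberg adjustment over all genes of a sum. Of 120 pairs of member and sum, 80 had enough counts to be tested. No pair was called (adjusted p under 0.05 with a log2 difference of at least 0.2), the smallest adjusted p was 0.153, and over all genes and sums 0.0198% of tests were called. At an unadjusted p under 0.05 there were 13 member pairs, or 16.25% of the 80, 3 higher and 10 lower in Het, against 7.22% of all tests. In no pair did the WT and Het libraries fall into separate ranges. Separate ranges were not counted for other genes, so this is a description only.

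Over all nuclei Nrg3 lay between 5823 and 7147 CPM in the 8 WT libraries with a median of 6378 CPM, and at 5324, 4969, 4980 and 5937 CPM in Het 1 to Het 4. Het 1, Het 2 and Het 3 lay below every WT library, and Het 4 lay above the lowest WT libraries. The log2 difference was -0.30 (SE 0.070, edgeR quasi-likelihood unadjusted p = 0.000589, adjusted p = 0.334), and DESeq2, an alternative tool, called it (-0.30, adjusted p = 0.0194). Nrg2 lay between 148 and 212 CPM in WT libraries (median 171 CPM) and at 174, 139, 138 and 140 CPM in Het libraries, where Het 1 stood above the other 3, and its difference was -0.29 (SE 0.099, adjusted p = 0.347). Both ligands were lower in Het on average but did not pass edgeR's adjusted test. The highest WT value of each was that of WT 4, which held only 17 D1-like and 10 D2-like nuclei among its 5065. Without WT 4 the differences on the log2(CPM + 1) scale were -0.24 for Nrg3 and -0.22 for Nrg2, in place of -0.27 and -0.25.

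Nrg1 lay between 3401 and 4177 CPM in WT libraries over all nuclei (median 3526 CPM) and at 3733, 3517, 3463 and 3909 CPM in Het libraries. All Het values were inside the WT range, and the difference was -0.04 (SE 0.067, edgeR adjusted p = 0.867). Erbb4 lay between 1915 and 2902 CPM in WT libraries (median 2308 CPM) and at 2014, 1882, 2024 and 2029 CPM in Het libraries. Het 2 was below all WT libraries and the other 3 Het libraries were above 3 of the 8, with a difference of -0.26 (SE 0.106, edgeR adjusted p = 0.415). Erbb2 had 2.37 ± 0.541 CPM in WT and 1.84 ± 0.190 CPM in Het libraries, with a difference of -0.38 (SE 0.171, adjusted p = 0.457), and Erbb3 2.15 ± 1.38 and 1.93 ± 0.749 CPM, with a difference of -0.10 (SE 0.374, adjusted p = 0.950). Among all genes tested over all nuclei, 4.69% were higher and 6.1% lower in Het at an unadjusted p under 0.05, and of the 6 members 0 were higher and 4 lower.

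**Figure D4:**
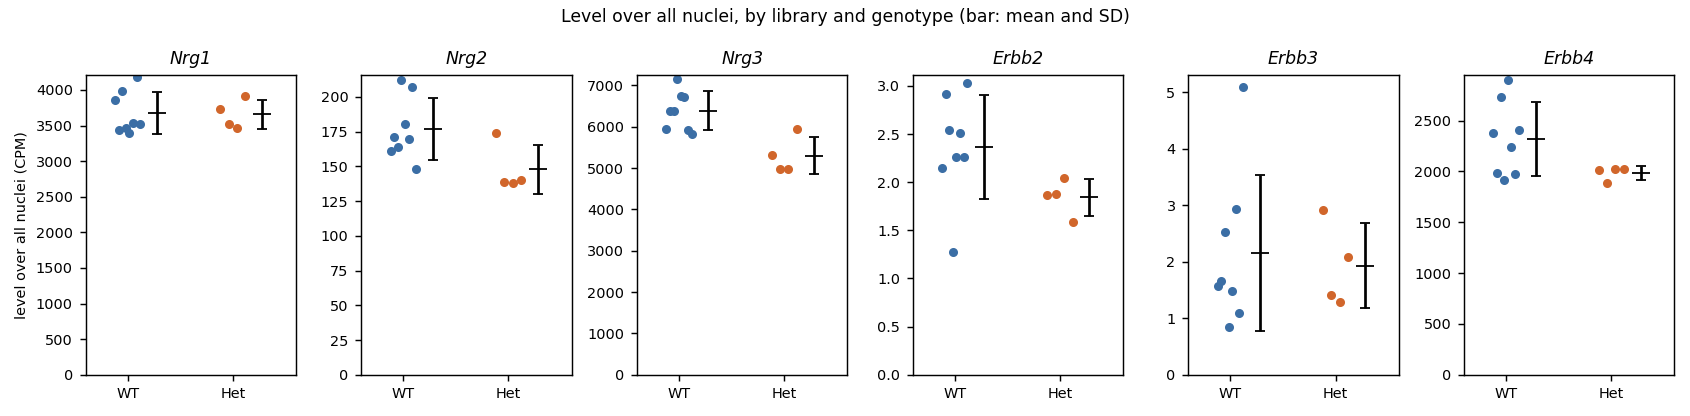
Level of each member over all kept nuclei, in CPM on axes from 0, with 1 point per library and mean ± SD for 8 WT and 4 Het libraries. Nrg3 is 6384 ± 469 CPM in WT and 5303 ± 454 CPM in Het, Nrg1 is 3671 ± 293 and 3656 ± 206 CPM, and the ranges of the genotypes overlap for all 6 members.

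Shares of some classes also had different means between genotypes, without passing the adjusted test. MGE-type nuclei were 6.41 ± 0.711% of kept nuclei in WT and 4.91 ± 0.515% in Het libraries (exact permutation, two-sided, p = 0.00808, adjusted p = 0.162 over the 20 shares), deep-layer-like nuclei 9.02 ± 3.69% and 4.86 ± 2.20% (exact p = 0.0687), D1-like nuclei 4.20 ± 1.84% and 6.90 ± 1.95% (exact p = 0.0303) and choroid/ependymal-like nuclei 0.393 ± 0.431% and 1.16 ± 0.696% (exact p = 0.0404), and no share passed the adjusted test. When the levels within 40 clusters, holding 92.3% of UMIs, were weighted by the same makeup in every library, the Nrg3 difference was -0.06 (exact permutation, two-sided, p = 0.0626) in place of -0.27 (p = 0.00606) on the same log2(CPM + 1) scale. For Erbb4 it was -0.10 in place of -0.21, with 2264 ± 62.0 CPM in WT and 2107 ± 73.0 CPM in Het libraries (2167 to 2341 against 2011 to 2169 CPM; exact p = 0.00404, adjusted p = 0.0242 over the 6 members). Leaving out 1 library at a time moved that Erbb4 difference between -0.12 and -0.08, with an exact adjusted p under 0.05 in 7 of 12 cases. This weighting was added after the data were seen.

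In the sum of the named excitatory classes the ligands Nrg2 and Nrg3 were again lower on average in Het. This sum held 26.4% of kept nuclei on average. It left out the unnamed nuclei, with 40.4% of all UMIs, whose part that is excitatory was not determined. Nrg3 lay between 8216 and 9601 CPM in WT libraries (median 8601 CPM) and at 7119, 7263, 6832 and 9085 CPM in Het 1 to Het 4, so that 3 Het libraries were below all WT libraries and Het 4 was among the higher of them, and the difference was -0.23 (SE 0.089, edgeR adjusted p = 0.370). Without Het 4 it was -0.33 and was called (adjusted p = 0.0470). Within the classes that make up this sum the Nrg3 difference was -0.12 in upper-layer-like, -0.07 in deep-layer-like and -0.01 in L6b/subplate-like nuclei (edgeR adjusted p from 0.787 to 0.996). With the marker gate it was larger, at -0.20 in upper-layer-like and -0.33 in deep-layer-like nuclei (edgeR adjusted p = 0.364 and 0.0734). The difference within classes thus depended on the assignment. Deep-layer-like nuclei, which have more Nrg3 than upper-layer-like nuclei, averaged 4.86% of nuclei in Het against 9.02% in WT libraries without passing the adjusted test. The part of makeup in the sum was not tested. Nrg2 lay between 213 and 299.97 CPM in WT and at 249, 194, 195 and 216 CPM in Het libraries, a difference of -0.26 (SE 0.100, edgeR adjusted p = 0.368). Nrg1 had 3751 ± 303 CPM in WT and 3424 ± 170 CPM in Het libraries, a difference of -0.15 (SE 0.084, adjusted p = 0.527). In this sum 5.21% of genes were higher and 6.2% lower in Het at an unadjusted p under 0.05.

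Deep-layer-like nuclei had a higher mean level of Erbb4 in Het, at levels far below those of interneurons. WT libraries lay between 29.0 and 179 CPM (median 102 CPM) and Het libraries at 172, 155, 213 and 169 CPM. Het 3 was above all WT libraries and the other 3 were below the highest of them, with a difference of +0.81 (SE 0.227, edgeR unadjusted p = 0.00170, adjusted p = 0.432). Here 3.63% of genes were higher and 3.71% lower in Het at that unadjusted threshold. Astroglia-like nuclei had Erbb4 at 217 to 459 CPM in WT libraries (median 345 CPM) and at 364, 667, 761 and 373 CPM in Het libraries, with Het 2 and Het 3 above all WT libraries and a difference of +0.64 (SE 0.186, adjusted p = 0.546). In D1-like nuclei, where WT 4 stood apart, WT libraries lay between 733 and 2806 CPM (median 1016 CPM) and Het libraries at 620, 674, 749 and 1111 CPM. Het 1 and Het 2 were below all WT libraries, and the difference was -0.45 (SE 0.169, edgeR adjusted p = 0.561), between -0.66 and -0.34 with 1 library left out. These levels are a small part of the interneuron level, and the part of stray RNA in them was not tested.

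In MGE-type interneurons, known for their ErbB4, 3 members had an unadjusted p under 0.05. Nrg2 lay between 106 and 165 CPM in WT libraries (median 127 CPM) and at 112, 71.7, 85.7 and 105 CPM in Het 1 to Het 4. Het 2, Het 3 and Het 4 were below all WT libraries and Het 1 was not, with a difference of -0.49 (SE 0.126, edgeR unadjusted p = 0.000618, adjusted p = 0.153). Nrg1 lay between 463 and 776 CPM in WT libraries (median 539 CPM), with WT 2 at 776 CPM and the other 7 at 592 CPM or less, and at 758, 757, 728 and 658 CPM in Het libraries. All Het libraries were above 7 of the 8 WT libraries, and the difference was +0.35 (SE 0.098, edgeR unadjusted p = 0.00151, adjusted p = 0.197). Without WT 2 it was +0.42 and was called (edgeR adjusted p = 0.0171). With the marker gate it was smaller, at +0.18, and was not called (edgeR adjusted p = 0.620). These Nrg1 levels are low, with a share of nuclei near that of endothelial-like and above that of mural/fibroblast-like nuclei, and the part of stray RNA in the difference was not tested.

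Erbb4 in MGE-type interneurons lay between 13694 and 17554 CPM in WT libraries (median 15769 CPM) and at 13435, 12346, 13836 and 14995 CPM in Het libraries. Of the Het values 2 were below and 2 within the WT range, and the difference was -0.22 (SE 0.067, edgeR unadjusted p = 0.00317, adjusted p = 0.272). In cluster 14 Erbb4 lay between 9047 and 12718 CPM in WT and at 8301, 7798, 8864 and 11612 CPM in Het libraries, and in cluster 17 between 24626 and 29841 CPM in WT and at 24762, 25120, 24940 and 26874 CPM in Het libraries. Nrg3 had a difference of -0.05 in the MGE sum (edgeR adjusted p = 0.907), and in the oligodendrocyte lineage Erbb4 had a difference of 0.00 (SE 0.057). In the MGE sum 3.72% of genes were higher and 4.18% lower in Het at an unadjusted p under 0.05.

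**Figure D5:**
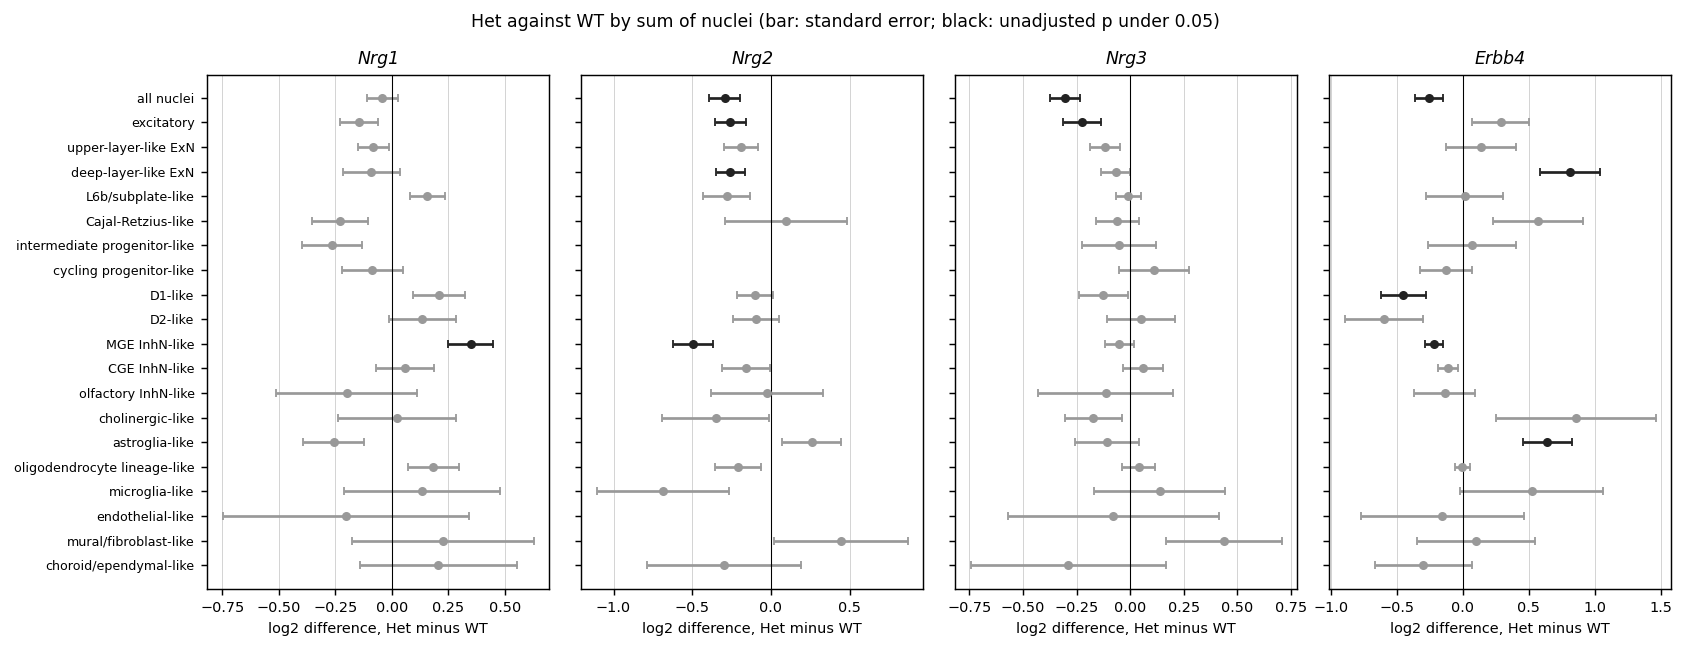
Difference between Het and WT (log2, edgeR) with its SE for Nrg1, Nrg2, Nrg3 and Erbb4 in each sum of counts in which the member was tested; black marks an unadjusted p under 0.05. No difference passed an adjusted p of 0.05. Nrg1 is +0.35 and Nrg2 -0.49 in MGE-like nuclei, and Erbb4 is +0.81 in deep-layer-like and -0.22 in MGE-like nuclei.

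Whether the genotypes differed by another amount in excitatory than in MGE-type nuclei was tested on log2(CPM + 1) by permuting the genotypes over libraries, a comparison chosen after the data were seen. For Nrg1 the difference was -0.13 in excitatory and +0.39 in MGE-type nuclei, and these differed by -0.52 (exact permutation, two-sided, p = 0.00606, adjusted p = 0.0182 over the 6 members). For Nrg2 it was -0.24 and -0.48, which differed by 0.24 (exact p = 0.00404, adjusted p = 0.0182). The part of stray RNA in the low Nrg1 level of MGE-type nuclei was not tested. The other 4 members had exact adjusted p between 0.149 and 0.457, and calls among them appeared for Nrg3 without Het 4 (-0.35, exact adjusted p = 0.0182), for Erbb4 without WT 5 (0.62, 0.0424) and for Erbb3 with all barcodes (0.83, 0.0364). Both calls were lost without Het 2 (exact adjusted p = 0.0727 for both) and without Het 3 (0.0545 for both), and both with the marker gate (0.127), and that of Nrg1 was also lost at the coarser clustering (-0.33, exact adjusted p = 0.133).

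The list of further pathway genes held 70 genes, 69 of them listed, and 0 were called in any of the 20 sums. Over all nuclei 66 were tested, of which 3 were higher and 2 lower in Het at an unadjusted p under 0.05, with a median difference of -0.01 against 0.00 for all 20086 genes. Among the higher were the kinase Yes1 (+0.14) and the GTPase Nras (+0.16), and the 2 lower were the ubiquitin ligase Cblb (-0.17) and the PI3-kinase subunit Pik3r1 (-0.17), with edgeR adjusted p from 0.343 to 0.415. Deep-layer-like nuclei had 7 higher and 5 lower of 54, or 22.2% against 7.34% of all genes, excitatory nuclei 4 higher and 6 lower of 64, or 15.6% against 11.4%, and MGE-type nuclei 1 higher, Yes1 at +0.28, and 0 lower of 54, or 1.85% against 7.91%. In excitatory nuclei the scaffold gene Mpp6 had the smallest adjusted p of the list (+0.33, SE 0.087, adjusted p = 0.283).

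The pathway genes also had their own places, given here for genes chosen after their levels were seen. Egfr, the other receptor in the list, was highest in cycling progenitor-like nuclei (858 ± 155 CPM). Its ligand Tgfa was highest in D1-like (194 ± 25.2 CPM) and D2-like nuclei (177 ± 38.2 CPM). Hbegf was highest in endothelial-like nuclei (54.6 ± 23.6 CPM), and Areg, Ereg, Btc and Epgn reached at most 2.54 CPM in any class. Of the proteases that release ligand, Adam10 was highest in endothelial-like nuclei (733 ± 183 CPM) and Adam17 in choroid/ependymal-like nuclei (122 ± 50.2 CPM), and Bace1, which cleaves Nrg1 products, was at most 36.2 ± 23.7 CPM. The oligodendrocyte lineage-like class, high for Erbb4 and first for Erbb3, was also the highest class for the adaptor Shc4 (280 ± 29.8 CPM, against 14.8 ± 7.48 CPM in the next class) and for the kinase Fyn (640 ± 61.2 CPM). Lrig1, a membrane protein that lowers ErbB receptor levels, was highest in astroglia-like nuclei (426 ± 67.9 CPM), the class highest for Erbb2, and Magi2, a synaptic scaffold gene, in Cajal-Retzius-like (5030 ± 1228 CPM) and MGE-type nuclei (3370 ± 243 CPM).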

How the data were processed

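Per the study's methods the authors mapped split-pool single-nucleus reads to mm10 and counted UMIs with the ScaleRna workflow; Seurat 4.3.0 is named in the submitters' processing notes. The deposited matrices hold expected counts (6.58% to 6.88% of entries in each library are divided UMIs), and sums per class and library were rounded for the count tests, although the design had assumed whole counts. The limits of the study on each nucleus (UMIs from 800 to 6000, genes from 300 to 3000, a mitochondrial share no higher than 1%, and log-scaled genes of 0.9 or more per log-scaled UMI) left 100000 of 126684 barcodes, a count that no setting fixed. The 5% with the highest doublet score in each library were removed.

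Leiden clusters (resolution 1.5, seed 1) used 3000 variable genes without members and pathway genes, 50 principal components and 20 neighbours. A cluster was named where at least 3 listed markers were raised by 0.5 (log2) with a mean score of at least 0.4 and a lead of 0.2 over the next class, where that next class scored under 2.0, a marker of its own was among its 100 leading genes, no other class had more among the first 10, the median doublet score was under 0.6 and the cluster held at least 20 nuclei, limits set after the clusters were seen. As an alternative each nucleus was gated on its own marker UMIs (78661 nuclei, 7046 within 1 UMI of the limit; 77.1% of the 54304 both gated and named had the same class). CPM needed 10 nuclei per class and library, and thinning to 800 UMIs left out no kept nucleus.

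Genotypes were compared by edgeR 4.0.16 (R 4.3.3), with DESeq2 1.42.0, other normalizations, filters and clusterings, sex and replicate terms and left-out libraries as alternatives; the fits were tested on simulated data. Exact sign-flip tests between classes on log2(CPM + 1) have a smallest unadjusted p of 0.000488 with 12 libraries, and exact permutations of genotype (495 arrangements) one of 0.00202. The genes named were the 6 members, the 5 pathway genes with the smallest p over all nuclei, that with the smallest p in the excitatory and in the MGE-type sum, and the 3 nearest in pattern to each member. One gene that this rule names is not reported here. The members and lists were chosen with earlier results of these data known. Per the labels each library is 1 animal; litters are not given for single animals.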

Additional observations from a re-analysis of the deposited data

Results flagged for a closer look

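In 4 groups of 34 examined, 1 library lay far from the others of its genotype, a number to set against the 1 in 20 groups that chance gives. Het 3 had 11115 CPM of Nrg1 in intermediate progenitor-like nuclei, where the other 3 Het libraries had 16991 to 17813 CPM. Het 1 had 174 CPM of Nrg2 over all nuclei, above 138 to 140 CPM in the other 3. WT 7 had 15.2 CPM of Erbb2 in astroglia-like nuclei, below 20.8 to 25.7 CPM in the other 7 WT libraries. Het 2 had 1882 CPM of Erbb4 over all nuclei, below 2014 to 2029 CPM in the other 3.

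In a comparison chosen after the data were seen, the excitatory minus the MGE-type genotype difference was -0.52 on the log2 scale for Nrg1, whose level in MGE-type nuclei is low, with the part of stray RNA not tested, and 0.24 for Nrg2. Both passed an exact permutation test adjusted over the 6 members (adjusted p = 0.0182), and neither passed it without Het 2, without Het 3 or with the marker gate (-0.25 and 0.15, exact adjusted p = 0.127 each). Nrg1 also did not pass at resolution 0.8 (exact adjusted p = 0.133).

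Erbb3 was highest of all clusters in cluster 42, which was left unnamed and took no part in the comparisons by class; it scored highest on the cycling progenitor markers, but none of these was among its 100 leading genes. It was led by genes that include Mybpc1, Frzb and Cdh19, and had 159 CPM of Erbb3 as the mean of the 8 libraries with at least 10 of its nuclei, from 53.0 CPM in Het 2 to 309 CPM in WT 6. It supplied 133 of the 406 Erbb3 UMIs, or 32.8%, from 0.372% of all UMIs.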

How the results depend on the processing

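No member was called between genotypes with RLE size factors, with doublets kept, with all barcodes, with whole UMIs, with sex as a covariate, at either other clustering resolution or with the marker gate. Calls by class (0 as reported) came to 5 without the low-count filter (Erbb4 in deep-layer-like, astroglia-like and D1-like nuclei, adjusted p = 9.88e-11, 1.2e-06 and 0.0374; Nrg2 and Nrg1 in MGE-type nuclei, 0.00351 and 0.0217), to 1 with males alone (Erbb4 in D1-like nuclei, -0.78, adjusted p = 0.0487), and to between 0 and 1 when libraries were left out in turn, the calls being Nrg1 in MGE-type nuclei without WT 2 and Nrg3 in excitatory nuclei without Het 4. Over all nuclei the count was 1 with DESeq2 (Nrg3) and 0 with any 1 library left out. Pathway calls were 1 without the filter (Dlg1, upper-layer-like), and 0 to 1 with a library left out (Mpp6 in excitatory nuclei without Het 4, +0.41, adjusted p = 0.0231). The cause was not tested for any of these changes. By exact permutation 0 of 120 pairs were called and 13 had an unadjusted p under 0.05, with 0 called when any 1 library was left out. The smallest p of this test, 0.00202, is too large for 1 pair alone to pass adjustment over 120 pairs. Without a Het library there are only 165 arrangements. The absence of calls therefore bears little on the genotypes. Only members were permuted, so the 13 have no share over all genes beside them.

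Labels number the replicates within genotype and sex. Same-numbered libraries had correlations of 0.50, -0.18, 0.14 and 0.16 over 8914 genes. The first, of the females WT 6 and Het 4, was a best match both ways and those of the males were not. The numbers thus did not pair the male libraries. With a replicate block 0 members and 0 pathway genes were called, and Nrg3 over all nuclei was then -0.29 (edgeR adjusted p = 0.448).

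Of the 12 neighbouring classes told apart, 0 were with the 8 WT libraries alone, where the smallest unadjusted p that an exact sign-flip test can give is 0.00781, too large to bear on stability over 102 pairs (smallest adjusted p = 0.0797), and directions were kept; Nrg3 in deep-layer-like over Cajal-Retzius-like nuclei was 0.10 with the marker gate (exact adjusted p = 0.173). Pairs with L6b/subplate-like or intermediate progenitor-like nuclei had no value with the marker gate, which held 9 and 3 such nuclei. At resolution 0.8 no intermediate progenitor-like class was named. Erbb4 in the oligodendrocyte lineage less the olfactory-type class was -0.18 and -0.21 at resolutions 0.8 and 2.5. The excitatory minus MGE-type difference of Nrg1 was -0.33 at resolution 0.8 and -0.25 with the marker gate, neither called, and -0.60 to -0.48 with a library left out; that of Nrg2 was 0.15 with the marker gate and 0.16 to 0.29 with a library left out. With the makeup held fixed Erbb3 over all nuclei was 0.19 in place of -0.04. The upper-layer-like share was 33.9% (Nrg2) and 29.9% (Nrg3) at resolution 0.8, and 39.2% and 37.0% with the marker gate. Counts limit Erbb2 and Erbb3, which were tested in 2 sums and 1 sum.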

Other observations

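Erbb4 was also high in several clusters that were left unnamed, and these were chosen after their levels were seen. Cluster 29, led by Tshz1, Pbx3 and Foxp2, had 11584 ± 3100 CPM (SD, n = 12 libraries), and cluster 41, led by Nxph1, Nxph2 and Lhx6, the genes of MGE-type interneurons, had 8989 ± 1297 CPM. Cluster 45, led by Pdgfra, Top2a and Mki67, genes of oligodendrocyte precursors and of dividing cells, had 7388 ± 374 CPM, with libraries between 6755 and 7923 CPM, inside the range of the named oligodendrocyte lineage-like class but for its lowest libraries. Cluster 44, led by Tnc, Veph1 and Bcan, the genes that lead the astroglia-like clusters, had 6816 ± 2555 CPM of Erbb4 (n = 11) beside 6632 ± 1523 CPM of Nrg1, whereas the named astroglia-like class had 409 ± 157 CPM of Erbb4. Clusters 41 and 44 met the marker limits but had median doublet scores of 0.673 and 0.653, above the 0.6 allowed for a named cluster, and the part of doublets in their Erbb4 was not tested.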
